A study of Mus musculus with 24 samples.

Results

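The genes described here encode the machinery that copies DNA, and they were followed across 24 mouse tumours in 4 treatment groups. They were chosen by name, with earlier results of these data known, so counts over them are no independent test. The list holds 45 genes for replication licensing, origin firing, DNA polymerases, the sliding clamp and its loader, nucleotide supply, strand joining and their regulation. Each was read from the probe set that the platform annotation gives for its symbol. Of the 45 genes, 44 had a probe set among the 19505 genes tested, with 1 probe set each, and Mcm7 was not analysed here. By its title the series concerns inhibition of the insulin-like growth factor 1 receptor, the insulin receptor and autophagy in pancreatic ductal adenocarcinoma (PDAC). The 4 groups held 6 tumours each: a control given vector, BMS754807 alone, hydroxychloroquine alone, and BMS754807 together with hydroxychloroquine, called the combination. BMS754807 is a small-molecule kinase inhibitor of those receptors, and hydroxychloroquine is a weak base that builds up in lysosomes and impairs the breakdown of autophagic cargo. Gene expression was measured on Clariom S arrays from 250 ng of total RNA of homogenised tumour. The labels used here state no strain, tumour model, age, dose or duration of treatment. They also leave unsaid which mouse each tumour was taken from, and every p therefore reflects only the spread between these samples, which may be technical. Values are log2 signal, so a difference of 1 is a doubling, and tests are those of limma with Benjamini-Hochberg adjustment over all 19505 genes.

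A cell licenses its origins in G1, when the origin recognition complex with Cdc6 and Cdt1 loads the MCM helicase onto DNA. At the start of S phase the kinase Cdc7 with its activator Dbf4, together with Mcm10, Cdc45 and the GINS complex, turns the loaded helicase into a moving fork. DNA polymerase alpha with primase lays down primers, the RFC complex loads the PCNA clamp, polymerases delta and epsilon extend the strands, and Fen1 and Lig1 mature and join the lagging-strand fragments. Many of these genes are transcribed under E2F factors as cells pass from G1 into S phase, so their summed RNA in a tumour is commonly read as a sign of how many cells are replicating. In bulk tumour RNA, more cells in S phase and more RNA per cell cannot be told apart.

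Promoter sequence was not used to choose the genes. Many genes of replication are known to be under E2F factors, however, so an excess of E2F-type motifs is no independent finding. In the RefSeq windows of build GRCm38.p6, 37 of the 44 measured genes had at least 1 listed start. The 250 bases before each start were searched on both strands for 4 E2F-type motif forms of 8 bases: TTTGGCGC, TTTCGCGC, TTTCCCGC and TTTGCCGC. A motif was found in 9 of the 37 genes (24.3%), against 441 of the 15691 genes on the array with a window (2.81%). Other replication genes, listed apart from these and described below, had a motif in 8 of 38 with a window (21.1%). The share is therefore not particular to the genes chosen here. Forms on opposite strands can overlap and were then merged into a single run. A CCAAT box (CCAAT or ATTGG) lay in 22 of the 37 genes (59.5%), against 39.2% on the array and 44.7% of the other replication genes. The median GC content was 58%, against 56% on the array and 63% for the other replication genes. A match is a description of these letters and no evidence of binding, and a start without a match may have a site outside the window. The matches are printed 5′ to 3′ on the strand of the gene with up to 9 bases on either side and the motif in capitals, to show which steps of replication they fall in.
Orc1 (licensing): cggttagtgGCGCGAAAagttttctc
Cdc6 (licensing): cggtggagaGCGGGAAAtcgcctggg
Mcm5 (licensing): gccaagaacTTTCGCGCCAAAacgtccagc
Mcm6 (licensing), upstream match: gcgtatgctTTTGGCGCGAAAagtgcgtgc
Mcm6 (licensing), match nearer the start: ttggacgggTTTGGCGCgaagtagct
Gins3 (origin firing): gagtgcggcGCGGGAAAgcgagtttg
Pola1 (polymerases): catcacaggGCGCCAAAtgcactccc
Rfc3 (clamp loading): gtcgcacgcTTTCGCGCtc
Uhrf1 (regulator): cgagtcgggTTTCGCGCgcccaggcg
Dnmt1 (methylation upkeep): tttccgcgcGCGCGAAAaagccgggg
In Mcm5 and in the upstream match of Mcm6, forms on both strands overlapped into a run of 12 bases. Uhrf1 and Dnmt1 were listed in the same step, regulators and methylation upkeep.

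Of the 8 genes with the smallest p for BMS754807 described below, 6 had a promoter window, and Pola1 and Cdc6 held a match. Both promoters are printed with that of Pold1, which had none, because these 3 genes were among those that lay highest in tumours given BMS754807. The windows are chrX:93632156-93632405 (minus strand), chr11:98907901-98908150 (plus strand) and chr7:44548816-44549065 (minus strand) of GRCm38.p6, each the 250 bases before the start.
Pola1: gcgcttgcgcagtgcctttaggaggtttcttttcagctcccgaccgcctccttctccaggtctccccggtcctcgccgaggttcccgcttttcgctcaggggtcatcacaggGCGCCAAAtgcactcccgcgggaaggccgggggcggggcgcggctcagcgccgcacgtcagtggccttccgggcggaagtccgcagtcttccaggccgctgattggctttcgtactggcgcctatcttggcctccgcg
Cdc6: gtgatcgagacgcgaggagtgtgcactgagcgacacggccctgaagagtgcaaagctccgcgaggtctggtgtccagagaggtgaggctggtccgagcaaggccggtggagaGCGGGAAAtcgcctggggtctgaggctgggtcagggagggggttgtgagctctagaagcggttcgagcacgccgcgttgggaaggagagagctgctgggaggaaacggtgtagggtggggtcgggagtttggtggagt
Pold1: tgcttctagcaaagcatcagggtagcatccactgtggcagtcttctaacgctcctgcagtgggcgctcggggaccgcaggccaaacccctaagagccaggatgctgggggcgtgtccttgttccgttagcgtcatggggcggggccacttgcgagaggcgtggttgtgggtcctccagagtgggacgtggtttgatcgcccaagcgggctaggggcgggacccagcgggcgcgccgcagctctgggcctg
GC content was 67.2% for Pola1, 63.6% for Cdc6 and 65.6% for Pold1.

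The array medians lay between 6.79 and 7.03, a spread that is not small beside the differences described below. Some results are therefore also given with each array shifted to a common median. The number of arrays limits the precision. Over all genes, 0 of 19505 passed an adjusted p under 0.05 in limma in any of the 8 comparisons. Of the markers of the labelled tissue, 13 of 14 epithelial and ductal genes were measured, with mean signals from 5.09 (Esrp1) to 16.9 (Krt7), while 8 acinar genes lay between 2.22 (Ptf1a) and 7.61 (Cela1). Some tumours stood apart in markers of other cells. The skeletal muscle list, given as the mean difference of its 10 genes from their 24-tumour means, exceeded 2 in control tumour 5, BMS754807 tumours 2 and 6, hydroxychloroquine tumour 5 and combination tumour 1. Counts of replication genes are therefore also given without those 5 tumours. The B cell list, on the same scale, exceeded 2 in 3 tumours: combination tumour 4 (2.47), BMS754807 tumour 5 (2.92) and hydroxychloroquine tumour 1 (3.87), the last of which also had a T cell mean of 2.27. The adipocyte list exceeded 2 for combination tumour 5 (2.37), hydroxychloroquine tumour 1 (2.93) and BMS754807 tumour 6 (5.20). The part of these cells in the results was not tested beyond leaving out each tumour in turn.

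Replication genes lay higher in tumours that had received BMS754807, with or without hydroxychloroquine. Over both backgrounds (12 tumours with BMS754807 against 12 without), 43 of 44 genes lay higher, where 50.5% of all genes did. Their median difference was 0.19 log2 against 0.00 for all genes, and the single gene on the other side (49.3% of all genes) was Rfc1, the large subunit of the clamp loader, at -0.01 ± 0.09 (SE). An unadjusted p under 0.05 was reached by 18 of the 44, all higher, against 3.03% of all genes that were higher at that level and 2.69% that were lower. None of the 44 passed the adjusted threshold, and the smallest adjusted p among them was 0.574, for Pola1. Without the 5 muscle-rich tumours 42 of 44 lay higher and 11 reached the unadjusted level. The genes are not independent of each other: within groups, over 24 arrays, the median Pearson r between members was 0.34 across 946 pairs, and 91.6% of pairs were above 0.

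**Figure D1:**
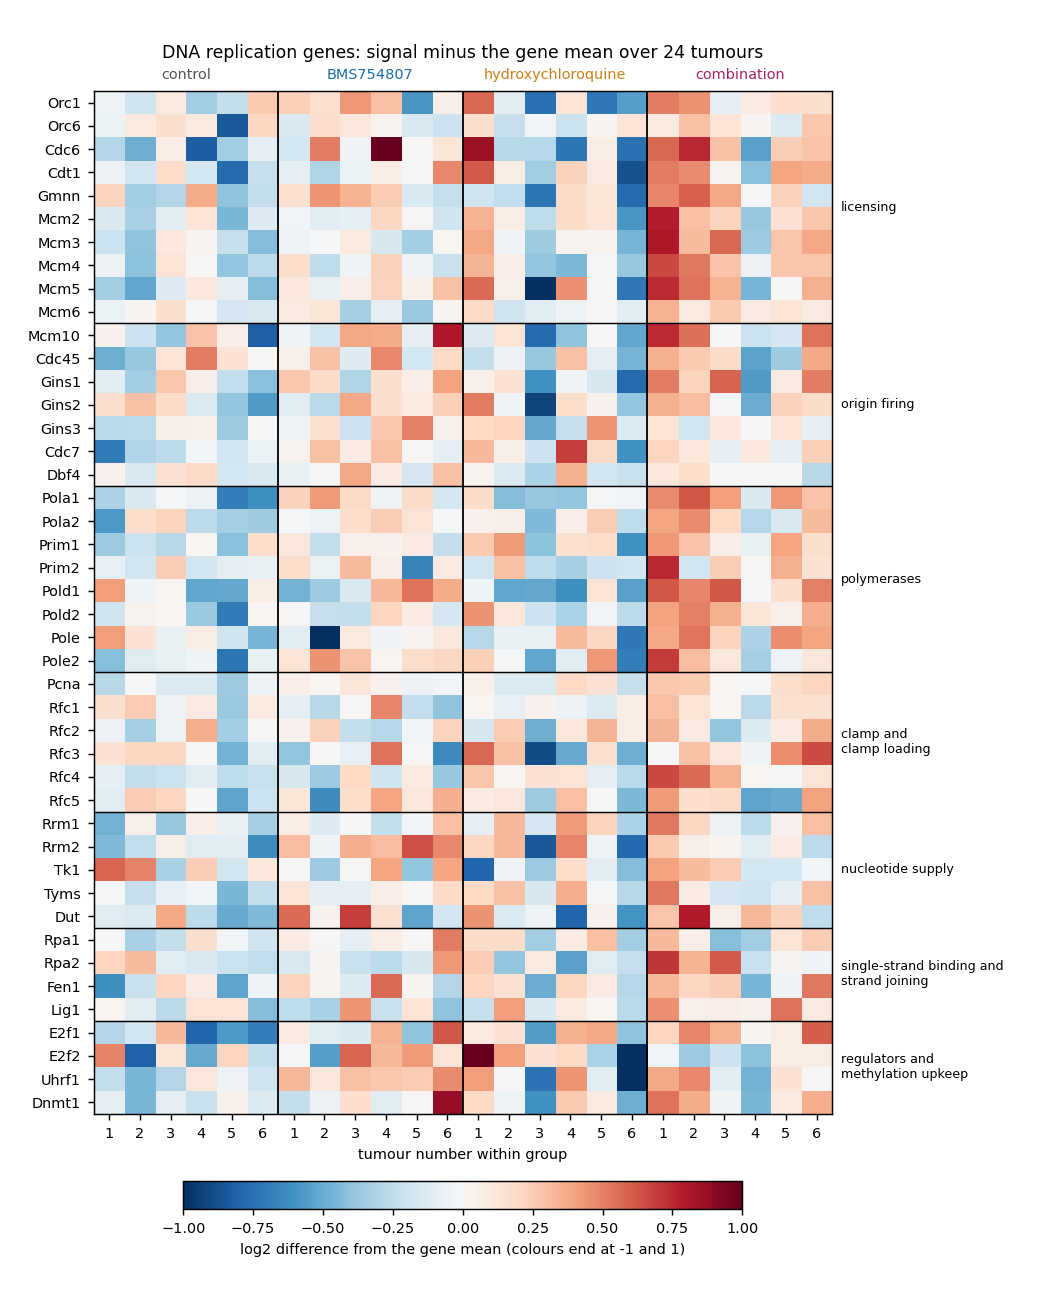
Heat map of 44 DNA replication genes (rows, by step) in 24 tumours (columns, by group), as log2 signal minus the gene's mean over all tumours, with colours ending at -1 and 1. Most rows are red in combination tumours 1 and 2 and blue in control tumour 5 and hydroxychloroquine tumours 3 and 6.

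The comparison over both backgrounds is the average of BMS754807 alone against control and the combination against hydroxychloroquine, which share no tumours. A gene lower in both would also be lower in the average, where only Rfc1 was. The counts below therefore split the result above into its parts and are no further evidence. Of the 44 genes, 35 lay higher in both and 0 lay lower in both, while 26.1% of all genes lay higher in both and 23.9% lower in both. Pola1 was the only member with an unadjusted p under 0.05 in each. By group means, the combination was the highest of the 4 groups for 33 of 44 genes (26.5% of all genes), BMS754807 alone for 10 (26.9%), control for Tk1 (22.1%) and hydroxychloroquine for 0 (24.5%). Control was the lowest for 26 genes (22.2% of all genes) and hydroxychloroquine for 13 (25.9%), of which the latter is near the background. The order control, hydroxychloroquine, BMS754807, combination from low to high was the most frequent and held for 10 genes.

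Single tumours departed from their groups. The mean difference of the 44 genes from their 24-tumour means ran from -0.30 to -0.0022 in control tumours and from -0.057 to 0.17 with BMS754807. It ran from -0.44 to 0.20 with hydroxychloroquine and from -0.19 to 0.43 in the combination, so these groups overlapped with the others. In combination tumour 1, 42 of 44 genes were above their mean, and in tumour 2 it was 41, whereas in combination tumour 4 it was 11. Hydroxychloroquine tumours 3 and 6 had 4 and 3 genes above the mean, while the other 4 of that group had between 25 and 34. Control tumour 5 had 5.

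**Figure D2:**
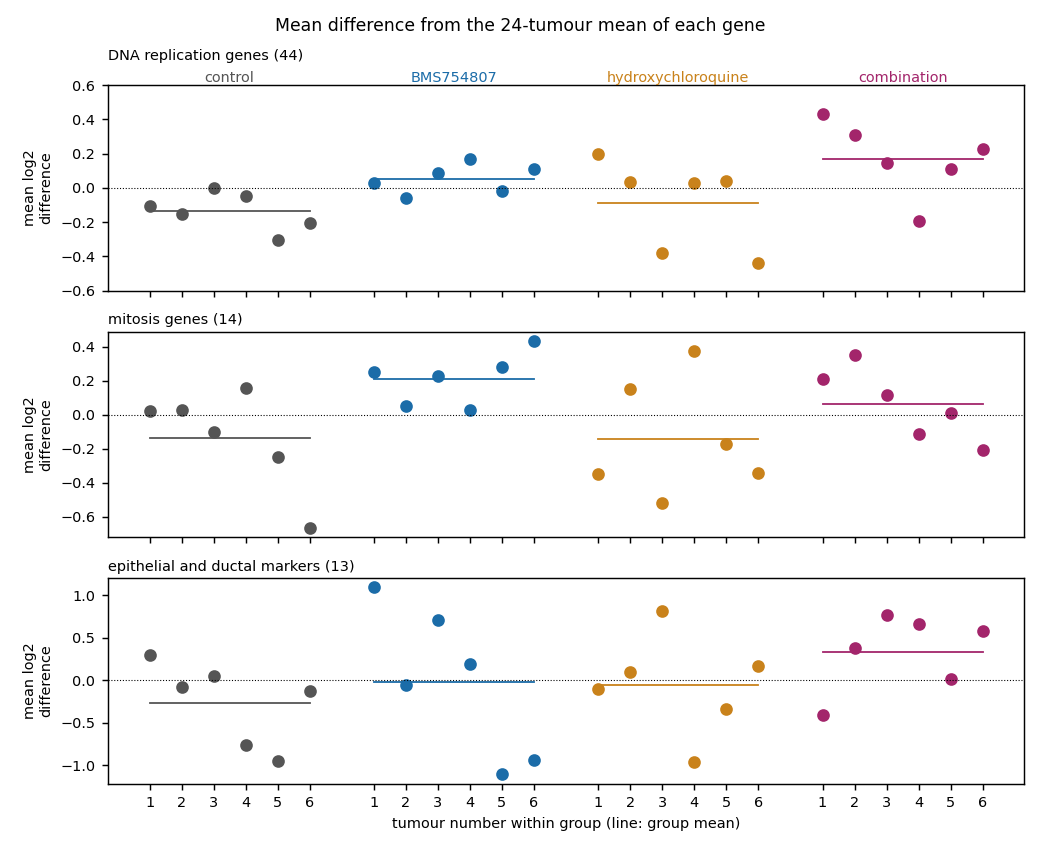
Mean log2 difference from the 24-tumour mean of each gene, per tumour (points) with the group mean (line), for 44 replication genes, 14 mitosis genes and 13 epithelial and ductal markers. For replication genes all 6 control tumours are at or below 0, and combination tumour 4 and hydroxychloroquine tumours 3 and 6 lie far below the rest of their groups.

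Licensing genes were measured for 10 of 11 listed. All 10 lay higher with BMS754807 over both backgrounds (median 0.28 log2), 6 of them at an unadjusted p under 0.05: Orc1, Cdc6, Gmnn, Mcm3, Mcm4 and Mcm5. Cdc6, the ATPase that brings the helicase to origins, had signals from 8.0 to 8.90 in control (median 8.51), from 8.65 to 9.84 with BMS754807 (8.90), from 8.08 to 9.69 with hydroxychloroquine (8.54) and from 8.28 to 9.58 in the combination (9.12). Its lowest values with BMS754807 reached into the control range, and hydroxychloroquine tumour 1, at 9.69, was above every combination tumour. The difference over both backgrounds was 0.51 ± 0.18 log2 (SE, 12 tumours on each side), a fold of 1.42, with 11 of 12 tumours above the mean of those without the agent and an adjusted p of 0.775.

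Gmnn encodes geminin, which binds Cdt1 and blocks licensing again within S phase. It ran from 8.17 to 8.94 in control (median 8.31), from 8.34 to 9.01 with BMS754807 (8.77), from 7.80 to 8.75 with hydroxychloroquine (8.35) and from 8.38 to 9.17 in the combination (8.88). All 4 ranges overlapped, and the lowest tumours were hydroxychloroquine 3 and 6. The difference over both backgrounds was 0.39 ± 0.13 (adjusted p 0.775).

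Among the helicase subunits, Mcm4 ran from 11.10 to 11.65 in control (median 11.35), from 11.26 to 11.74 with BMS754807 (11.47), from 11.06 to 11.85 with hydroxychloroquine (11.32) and from 11.45 to 12.17 in the combination (11.80). In the combination 5 of 6 tumours were above every control tumour, and combination tumour 4 equalled control tumour 1. Mcm4 lay 0.49 ± 0.15 higher in the combination than in control, and Mcm3 0.52 ± 0.16, both without passing (adjusted p 0.867 and 0.873). Mcm2 lay 0.40 ± 0.16 higher in that comparison and 0.14 ± 0.16 higher with BMS754807 alone. Mcm6 gave 0.21 ± 0.10 in the combination and -0.06 with BMS754807 alone. The 5 measured subunits moved together between tumours of a group, with pairwise r from 0.32 to 0.80 (median 0.64, 10 pairs, 24 arrays). The loader Cdt1 lay at 0.44 ± 0.21 and the origin recognition subunit Orc6 at 0.17 in the combination against control.

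Of the origin firing genes, all 7 lay higher with BMS754807 over both backgrounds (median 0.18 log2), and 2 reached an unadjusted p under 0.05, Mcm10 and Gins1. Mcm10, which helps the loaded helicase become active, ran from 8.63 to 9.73 in control (median 9.37), from 9.26 to 10.25 with BMS754807 (9.61), from 8.68 to 9.58 with hydroxychloroquine (9.18) and from 9.23 to 10.19 in the combination (9.72). Every group overlapped every other, and BMS754807 tumour 6 was the highest of all. All 12 tumours with BMS754807 were above the mean of those without, by 0.45 ± 0.15 on average (adjusted p 0.764). Gins1, a subunit of the GINS complex of the moving helicase, lay 0.36 ± 0.13 higher (adjusted p 0.799). The kinase Cdc7 lay higher than control in each treated group, by 0.36 ± 0.16 with BMS754807, 0.33 ± 0.16 with hydroxychloroquine and 0.34 ± 0.16 in the combination. These 3 values share the same 6 control tumours, of which tumour 1 was the lowest. Its activator Dbf4 stayed within 0.11 log2 of control in all 3, and Cdc45 lay between -0.14 and 0.13.

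The polymerase genes included Pola1, the member with the smallest p. All 8 lay higher with BMS754807 over both backgrounds (median 0.24 log2), 5 at an unadjusted p under 0.05 (Pola1, Pola2, Pold1, Pold2 and Pole2), and all 8 lay higher in the combination than in control (median 0.39). Pola1 encodes the catalytic subunit of DNA polymerase alpha, which extends the RNA primer. Its signal ran from 10.16 to 10.83 in control (median 10.62), from 10.67 to 11.27 with BMS754807 (11.04), from 10.41 to 11.03 with hydroxychloroquine (10.65) and from 10.70 to 11.47 in the combination (11.27). With BMS754807, 4 of 6 tumours were above every control tumour, and in the combination 5 of 6 were, the exception being tumour 4. Over both backgrounds the difference was 0.48 ± 0.11 (95% interval 0.26 to 0.70), a fold of 1.40, with 12 of 12 tumours above the mean of those without the agent. The adjusted p was 0.574, and it ranged from 0.298 to 0.735 over 33 alternative fits.

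Pold1, the catalytic subunit of DNA polymerase delta, ran from 7.57 to 8.51 in control (median 8.08), from 7.62 to 8.63 with BMS754807 (8.18), from 7.48 to 8.23 with hydroxychloroquine (7.58) and from 8.07 to 8.71 in the combination (8.59). The combination was set apart mainly from hydroxychloroquine alone, where 5 of 6 tumours were at or below 8.05 and the difference was 0.74. Against control it was 0.49 ± 0.20, while BMS754807 alone gave 0.14 ± 0.20. Its interaction, the effect of BMS754807 with hydroxychloroquine minus the effect without, was 0.60 ± 0.28 (unadjusted p 0.0388, adjusted p 0.951). It was the only member under 0.05 there, 1 of 44 against 2.74% of all genes higher at that level.

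Pold2, the second subunit of polymerase delta, ran from 12.37 to 13.10 in control and from 13.12 to 13.57 in the combination, so these groups did not overlap. The difference was 0.50 ± 0.14 (adjusted p 0.867), and the other groups overlapped with both, from 12.83 to 13.28 with BMS754807 and from 12.75 to 13.52 with hydroxychloroquine. Absence of overlap in this direction was found for 2 members in the combination against control, Pold2 and Rfc4, and for 0.2% of all genes. Pole2, a subunit of the leading-strand polymerase epsilon, ran from 8.49 to 9.19 in control (median 9.12), from 9.24 to 9.67 with BMS754807 (9.41), from 8.53 to 9.66 with hydroxychloroquine (9.16) and from 8.89 to 9.92 in the combination (9.34). It was the only member whose BMS754807 and control tumours did not overlap (0.103% of all genes), at 0.46 ± 0.18 (adjusted p 0.838). The catalytic subunit Pole differed in pattern, at -0.14 with BMS754807 alone and 0.30 in the combination. The primase genes Prim1 and Prim2 gave 0.15 and 0.05 with BMS754807 alone and 0.39 and 0.29 in the combination.

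**Figure D3:**
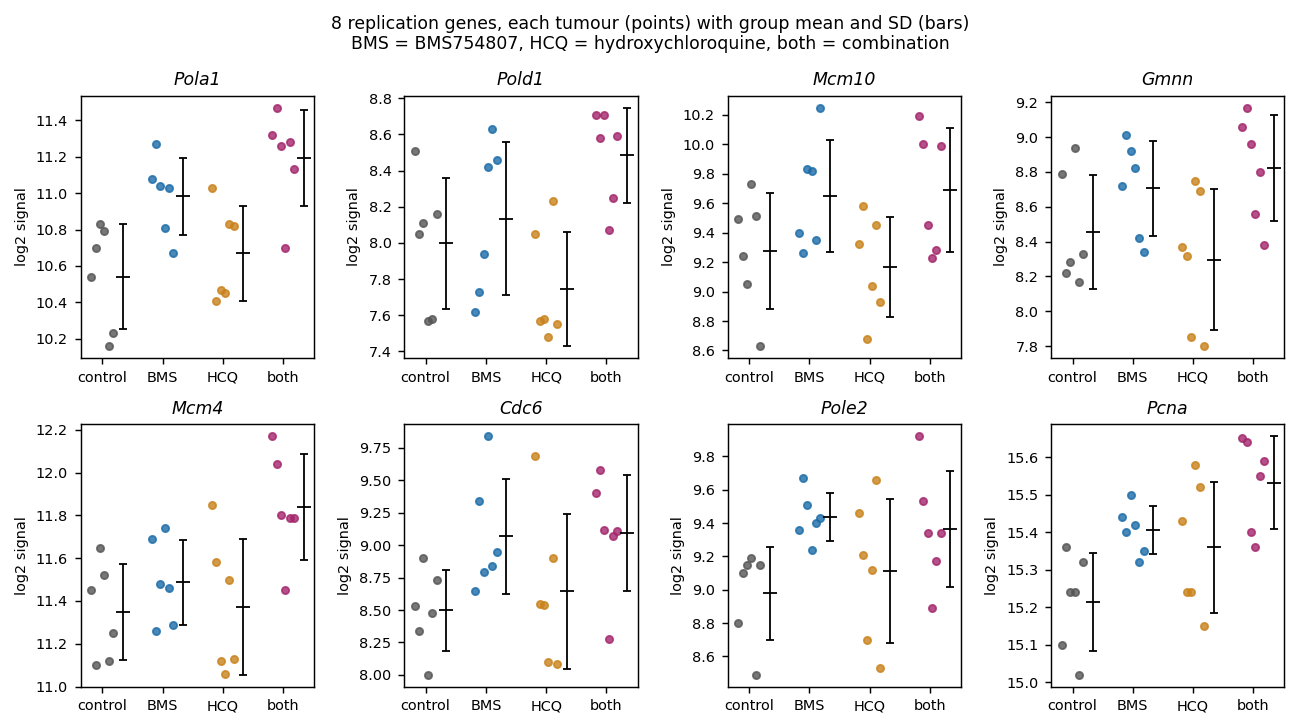
Log2 signal of the 8 replication genes with the smallest p for BMS754807 over both backgrounds, 1 point per tumour and, beside the points, the group mean with its SD (n = 6). In Pola1, 5 of 6 combination tumours lie above every control tumour, and in Pole2 all 6 BMS754807 tumours do.

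Of the clamp and its loader, 5 of 6 genes lay higher with BMS754807 over both backgrounds (median 0.13 log2), and Pcna was the 1 gene at an unadjusted p under 0.05. Pcna, the sliding clamp that holds the polymerases on DNA, ran from 15.02 to 15.36 in control (median 15.24), from 15.32 to 15.50 with BMS754807 (15.41), from 15.15 to 15.58 with hydroxychloroquine (15.34) and from 15.36 to 15.65 in the combination (15.57). The lowest combination tumour equalled the highest control tumour. The difference over both backgrounds was 0.18 ± 0.07 (adjusted p 0.799), the smallest SE of any member, and against control the combination lay 0.32 ± 0.09 higher (adjusted p 0.867). Of the loader subunits, Rfc4 ran from 9.98 to 10.14 in control, from 9.85 to 10.43 with BMS754807, from 9.96 to 10.51 with hydroxychloroquine and from 10.22 to 10.89 in the combination. Its combination and control tumours did not overlap, at 0.47 ± 0.13 (adjusted p 0.849), while BMS754807 alone gave 0.05 and hydroxychloroquine alone 0.22. Rfc1, Rfc2 and Rfc5 lay within 0.16 log2 of control in all 3 treated groups, and Rfc3 between -0.14 and 0.25.

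All 5 nucleotide supply genes lay higher with BMS754807 over both backgrounds (median 0.12 log2), 2 of them at an unadjusted p under 0.05, Rrm2 and Dut. Rrm2, the regulated subunit of ribonucleotide reductase, was highest with BMS754807 alone, from 12.49 to 13.17 (median 12.87), against 11.91 to 12.59 in control (12.35), 11.68 to 13.02 with hydroxychloroquine (12.61) and 12.27 to 12.79 in the combination (12.58). With BMS754807 5 of 6 tumours were above every control tumour. The difference was 0.59 ± 0.19 (adjusted p 0.793) with BMS754807 and 0.26 ± 0.19 in the combination, and the interaction was -0.47 ± 0.27 (adjusted p 0.951). The catalytic subunit gene Rrm1 lay at 0.19, 0.26 and 0.32 with BMS754807, hydroxychloroquine and the combination. Dut, which removes dUTP, lay 0.36 ± 0.16 higher over both backgrounds (adjusted p 0.823), and Tyms, thymidylate synthase, lay 0.21 to 0.25 above control in each treated group.

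Tk1, the thymidine salvage kinase, was the only member with its highest mean in control. Its signal ran from 6.79 to 7.70 in control (median 7.29), from 6.72 to 7.51 with BMS754807 (7.13), from 6.32 to 7.29 with hydroxychloroquine (6.88) and from 6.94 to 7.52 in the combination (7.23). It lay -0.41 ± 0.19 with hydroxychloroquine against control (unadjusted p 0.0373, adjusted p 0.979), the only member that was lower at an unadjusted p under 0.05 in any comparison. All 4 groups overlapped.

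All 4 single-strand binding and strand joining genes lay higher with BMS754807 over both backgrounds (median 0.15 log2), with 0 at an unadjusted p under 0.05. With BMS754807 alone they lay on both sides of control, at 0.20 for Rpa1, -0.03 for Rpa2, 0.25 for the flap nuclease Fen1 and -0.01 for the ligase Lig1. In the combination all 4 lay higher, from 0.10 (Rpa1) to 0.32 (Fen1), and 0 of them reached an unadjusted p under 0.05 there. Lig1 had the lowest median r with the other members between tumours, at 0.10.

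All 4 regulators lay higher with BMS754807 over both backgrounds (median 0.31 log2), 2 of them at an unadjusted p under 0.05, E2f1 and Uhrf1. E2f1, an activating factor of the G1 to S programme, ran from 7.37 to 8.49 in control (median 7.73), from 7.76 to 8.78 with BMS754807 (8.15), from 7.60 to 8.55 with hydroxychloroquine (8.29) and from 8.19 to 8.77 in the combination (8.45). Control tumour 3 stood above the other controls and inside every treated range. The combination lay 0.66 ± 0.20 above control, the largest difference of any member in that comparison, with 6 of 6 tumours above the control mean (adjusted p 0.867). E2f2 gave -0.02 ± 0.30 there, with the largest SE of the members. Uhrf1, which brings the maintenance methyltransferase to newly copied DNA, lay 0.47 ± 0.20 higher with BMS754807 (adjusted p 0.839), and that methyltransferase, Dnmt1, 0.27.

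**Figure D4:**
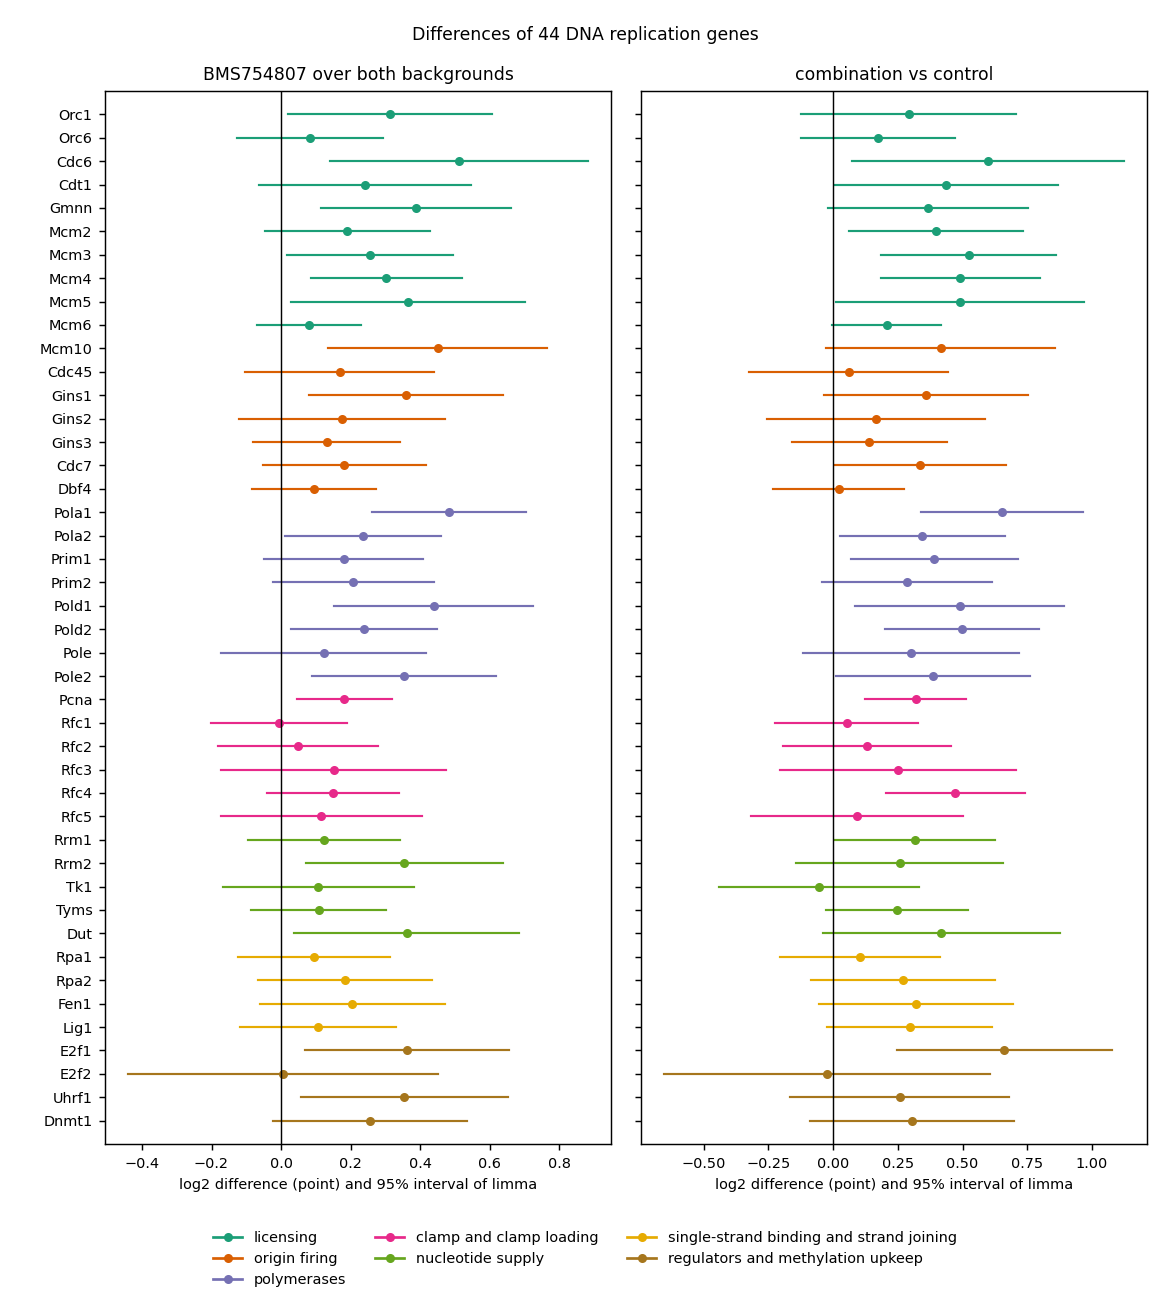
Log2 differences (points) with 95% intervals from limma for 44 replication genes, for BMS754807 over both backgrounds (left) and the combination against control (right), coloured by step. In the left panel 43 points lie above 0 and 18 intervals leave out 0, and in the right panel 42 and 17.

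The genes with an E2F-type match, printed above, had a median difference of 0.31 for BMS754807 over both backgrounds (9 genes, 0.08 to 0.51). The 28 with a window and no match had 0.18 (-0.01 to 0.45), and in the combination against control the medians were 0.29 and 0.32. The ranges overlapped in both cases, and no test was made of so few genes.

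BMS754807 alone against control gave 37 of 44 genes higher, where 50% of all genes were, with a median of 0.18. At an unadjusted p under 0.05, 7 were higher (2.78% of all genes were) and 0 lower (3.09% of all genes were). The 7 were Cdc6, Cdc7, Pola1, Pole2, Rrm2, E2f1 and Uhrf1. The clamp and clamp loading genes had the lowest step median (0.06) and the regulators the highest (0.35). No member lay wholly below control without overlap, as 0.0718% of all genes did. Without BMS754807 tumour 4 the 7 became 4, and without the muscle-rich tumours 2, with 36 of 44 still higher.

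Hydroxychloroquine alone against control gave 28 of 44 higher, where 49.6% of all genes were, with a median of 0.08. At an unadjusted p under 0.05, 1 member was higher (Cdc7, against 2.43% of all genes) and 1 lower (Tk1, against 2.38%), which is near the background. No member was free of overlap with control in either direction, against 0.0615% of all genes above it and 0.0923% below. Without hydroxychloroquine tumour 6, the lowest of the group, 33 lay higher and 6 were past the unadjusted level. Without hydroxychloroquine tumour 3 it was 2, with a median of 0.17, and without hydroxychloroquine tumour 1 the median was -0.01, with 21 higher. Without the muscle-rich tumours 22 of 44 lay higher, with a median of 0.00, and with a common array median 23, with a median of 0.02. Cdc7 had a p of 0.0497, and leaving out 1 tumour altered the count of 1 in 21 of 24 fits, to 0 in all of them but those without hydroxychloroquine tumour 3 or 6.

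The combination against control gave 42 of 44 higher, where 51.4% of all genes were, with a median of 0.31. Tk1 (-0.05) and E2f2 lay on the other side. At an unadjusted p under 0.05, 17 were higher (2.66% of all genes were) and 0 lower (2.39% of all genes were). Of the 17, 6 were licensing genes, 6 polymerase genes and 2 of the clamp and its loader. The 17 became 9 without combination tumour 1 and 11 without combination tumour 2, the pair in which the most members were above their mean, and 24 without combination tumour 4. They became 7 without the muscle-rich tumours, which include combination tumour 1, with 40 of 44 still higher and a median of 0.24. They became 11 when each array was shifted to a common median. With the epithelial and ductal mean as covariate 42 lay higher, with a median of 0.37.

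Against BMS754807 alone the combination gave 34 of 44 higher, where 49.2% of all genes were, with a median of 0.12, and 6 at an unadjusted p under 0.05 (5.13% of all genes), with 0 lower at that level (3.48%). The 6 were Mcm3, Mcm4, Mcm6, Pold2, Pole and Rfc4. All 10 licensing genes lay higher and 4 of 7 origin firing genes lower. Of all genes 50.4% lay lower. The 6 became 3 without combination tumour 1, 11 without combination tumour 4 and 1 without the muscle-rich tumours. The median was 0.05 with 29 higher without combination tumour 1, 0.18 with 37 higher without combination tumour 4, and 0.07 with 28 higher without the muscle-rich tumours. With a common array median it was 0.08, with 29 higher. Rfc4 had the smallest p of the members, at 0.42 (adjusted p 0.357), and Rrm2 lay lowest at -0.33. Against hydroxychloroquine alone the combination gave 42 of 44 higher (51.8% of all genes), with a median of 0.24, and 12 at that level (2.8%), with 0 lower (2.59%), led by Pold1, Pola1 (0.53), Mcm4 (0.47) and Gmnn (0.53). The 12 became 5 without hydroxychloroquine tumour 3, 6 without hydroxychloroquine tumour 6, 5 without combination tumour 1 and 19 without combination tumour 4. These comparisons share tumours with those against control and are not further evidence.

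Hydroxychloroquine over both backgrounds gave 32 of 44 higher, where 50.2% of all genes were, with a median of 0.09 and 4 members higher at an unadjusted p under 0.05 (4.54% of all genes) and 0 lower (3.55%). They were Rfc4 (0.32, adjusted p 0.306), Pold2 (0.26), Mcm3 (0.27) and E2f1 (0.30). The 4 became 10 without hydroxychloroquine tumour 6 or combination tumour 4, and 2 without BMS754807 tumour 5, hydroxychloroquine tumour 1 or combination tumour 1. Without the muscle-rich tumours 24 of 44 lay higher, with a median of 0.02, and with a common array median 27, with a median of 0.04, both near the share of all genes. Without hydroxychloroquine tumour 1 the median was 0.05, with 27 higher. The interaction gave 26 of 44 higher, where 50.7% of all genes were, with a median of 0.07, which leaving out 1 tumour moved between -0.01 (without hydroxychloroquine tumour 6) and 0.16 (without combination tumour 4). The 1 member at the unadjusted level became 5 without hydroxychloroquine tumour 1, 4 without combination tumour 4, 3 without BMS754807 tumour 4 or 6, and 2 without control tumour 5 or hydroxychloroquine tumour 4. It became 0 without control tumour 1 or 2, BMS754807 tumour 3, hydroxychloroquine tumour 2, 3 or 6, or combination tumour 1, 2, 3 or 6.

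Other genes of replication, listed apart from the members, also lay mostly higher with BMS754807. Of 50 listed, 48 were measured. Over both backgrounds 43 lay higher with BMS754807 (median 0.16), where 50.5% of all genes did. At an unadjusted p under 0.05, 11 were higher (3.03% of all genes) and 0 lower (2.69%). Among the 11 were the origin-firing factor Topbp1 (0.27), the nuclease and helicase Dna2 (0.31), the fork protector Timeless (0.39) and the chromatin assembly genes Chaf1a (0.33), Chaf1b (0.28), Asf1b (0.31) and Nasp (0.23). In the combination against control 41 lay higher (51.4% of all genes), with a median of 0.17, and 10 at that level (2.66%). Chaf1b lay at 0.62 ± 0.19 (adjusted p 0.867) and the helicase gene Mcm8 at 0.61 ± 0.22. Dna2 lay at 0.25 with BMS754807, -0.38 with hydroxychloroquine and -0.01 in the combination against control. Rrm2b, the p53-induced subunit of ribonucleotide reductase, lay at -0.30 ± 0.14 with BMS754807 alone (adjusted p 0.839). Its difference was 0.115 in the combination against control and 0.04 with BMS754807 over both backgrounds. Samhd1, which degrades deoxynucleotides, was the lowest of the list in the combination at -0.16.

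Genes of mitosis lay higher with BMS754807 as well. All 14 measured mitosis genes of 15 listed lay higher with BMS754807 alone (median 0.37) and 12 in the combination (median 0.21) against control. Of all genes, 50% and 51.4% lay higher in these comparisons. Over both backgrounds all 14 lay higher with BMS754807 (median 0.27), where 50.5% of all genes did. Of the 14, 9 reached an unadjusted p under 0.05 in limma (3.03% of all genes were higher at that level), and 0 passed the adjusted threshold. The replication genes had a median of 0.19 there, with 18 of 44 at the unadjusted level. In the combination against BMS754807 alone, 11 of 14 mitosis genes lay lower (median -0.14). There 34 of 44 replication genes lay higher, or 28 without the muscle-rich tumours. Of all genes, 50.4% lay lower and 49.2% higher. Whether the lists differ in that comparison was not tested. Mki67, present in cycling cells, lay 0.32 ± 0.16 above control with BMS754807 and 0.12 ± 0.16 in the combination. In combination tumour 6 the replication mean was 0.22 and the mitosis mean -0.21, and in hydroxychloroquine tumour 1 they were 0.20 and -0.35.

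Markers of tumour epithelium overlapped widely between the groups, with the highest group mean in the combination (0.33) and the lowest in control (-0.26). The mean difference of the 13 epithelial and ductal genes ran from -0.95 to 0.30 in control, from -1.11 to 1.09 with BMS754807, from -0.97 to 0.81 with hydroxychloroquine and from -0.40 to 0.76 in the combination. The 9 macrophage genes ran from -0.37 to 1.27 in control and from -0.85 to 0.38 in the combination, and the 9 fibroblast genes from -0.996 to 0.84 and from -1.16 to 0.30. Single tumours went both ways. Control tumour 5 had the lowest replication mean and the lowest epithelial mean of the controls (-0.95). By contrast, combination tumour 1 had the highest replication mean and the lowest epithelial mean of its group (-0.40). Both are muscle-rich tumours, with skeletal muscle means of 4.10 and 5.26, and the part of muscle in their epithelial means was not tested. Whether the epithelial and replication means were related across all tumours was not tested either. With the epithelial mean as covariate the replication median over both backgrounds was 0.22, against 0.19 without it. Against control it was 0.20 for BMS754807 (0.18 without the covariate), 0.12 for hydroxychloroquine (0.08) and 0.37 for the combination (0.31).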

How the data were processed

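The deposited table holds log2 signal per probe set for 24 Clariom S arrays (22206 probe sets, 0 missing values). Per the submitters' processing notes the authors used Transcriptome Analysis Console 4.0. Log base, background correction, normalization, summarization and genome build are not given in the sources used here, and log2 was inferred from the values (1.45 to 19). Array depth does not apply, and the number of arrays limits precision.

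Symbols came from the platform annotation (19572 probe sets with 1 symbol, 2634 with none, 0 with several), and the probe set with the highest mean was kept per gene, which left 19505 genes. All 24 arrays entered a single linear model of the 4 group means in limma 3.58.1 (R 4.3.3, lmFit and eBayes, 20 residual degrees of freedom). Tests were two-sided, with Benjamini-Hochberg adjustment over all genes and a threshold of 0.05. The fit was also tried on simulated independent genes, with shifts larger than those of the members over both backgrounds. Of the 8 comparisons, those over both backgrounds average the effect of an agent with and without the other. Lists are described by counts and medians, with no test. The members, lists and naming rule (the 2 members of smallest p per step, or 4 in the lesser comparisons, and Pcna, Mcm2, Pola1, Rrm2, E2f1 and Mki67) were chosen with earlier results of these data known. Tumour numbers were not taken as pairs. Of 36 same-numbered pairs, 9 correlated above 0.1 (median r -0.01, against 0.004 for pairs of other numbers). Whether equal numbers share a batch was not tested. Alternatives were mean probe sets, quantile normalization, a common array median, a filter on dim genes, array weights, trended robust variance, a replicate block, an epithelial covariate, and leaving out tumours. RefSeq promoters are of GRCm38.p6.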

Additional observations from a re-analysis of the deposited data

Results flagged for a closer look

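A tumour far from the other 5 of its group was found for 9 of 176 combinations of gene and group, and chance gives about 1 in 20. With BMS754807 the lowest value of Pole was 7.20 and of Rfc5 8.68, both in tumour 2, the next being 8.14 and 9.43. Orc1 was lowest at 7.07 in BMS754807 tumour 5 (next 7.71). BMS754807 tumour 6 was highest for Rpa1 at 11.13 (next 10.70) and for Dnmt1 at 11.87 (next 11.16). In control, Orc6 was lowest in tumour 5 at 10.21 (next 10.99) and Prim2 highest in tumour 3 at 11.70 (next 11.38). Prim2 was also highest in hydroxychloroquine tumour 2 at 11.75 (next 11.27). Pole was lowest in combination tumour 4 at 7.94 (next 8.47).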

How the results depend on the processing

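None of the members named in the text passed the adjusted threshold in any alternative run for it. For BMS754807 over both backgrounds, leaving out 1 tumour left 42 to 44 members higher, with 13 to 22 at an unadjusted p under 0.05. Counts below are members higher at that level. Without the muscle-rich tumours they were 2 for BMS754807, 0 for hydroxychloroquine and 7 for the combination against control, 1 for the combination against BMS754807, 11 and 1 for BMS754807 and hydroxychloroquine over both backgrounds, and 2 for the interaction. With a common array median they were 11 for the combination and 0 for hydroxychloroquine against control, and 1 for hydroxychloroquine over both backgrounds. Quantile normalization gave 0 for hydroxychloroquine against control. Array weights gave 0 there, 2 over both backgrounds and 5 for the interaction, and the epithelial covariate 2 and 8 for hydroxychloroquine against control and over both backgrounds. Leaving out 1 tumour gave 4 to 8 (BMS754807), 0 to 6 (hydroxychloroquine) and 9 to 24 (combination) against control, 3 to 11 and 5 to 19 for the combination against BMS754807 and hydroxychloroquine, 2 to 10 for hydroxychloroquine over both backgrounds and 0 to 5 for the interaction. The cause was not tested.

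Tumour numbers were not taken as pairs, and 6 of 24 arrays correlated best with an array of their own number. With a replicate block the counts were 0 for hydroxychloroquine against control and 0 for the interaction, and 17 for BMS754807 over both backgrounds. Genes past the adjusted threshold, 0 as reported, were 1 for hydroxychloroquine against control and 1 over both backgrounds with the block, and 5 over both backgrounds with a trended robust variance. Leaving out 1 tumour gave 0 to 1 for BMS754807 and for hydroxychloroquine against control and for the combination against BMS754807, and 0 to 2 for hydroxychloroquine over both backgrounds.

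Small differences changed sign. The interaction of Pcna (-0.02) was 0.005 with a common array median, 0.0037 with array weights and 0.012 without the muscle-rich tumours, and that of E2f1 (-0.14) was 0.028 with array weights and 0.083 without the muscle-rich tumours, where Gins3 with hydroxychloroquine was -0.01. Leaving out 1 tumour gave interactions of -0.062 to 0.024 for Pcna, -0.007 to 0.227 for Mcm2 and -0.187 to 0.033 for Mki67. It gave -0.015 to 0.205 for Mki67 in the combination against control, -0.041 to 0.507 for E2f2 with hydroxychloroquine against control, and -0.028 to 0.24 for Rrm2 in the combination against hydroxychloroquine. With 6 arrays a group, the SE of a member was 0.094 to 0.305 log2 against control. Differences of that size could not be resolved, and larger ones also missed the adjusted threshold, up to 0.66 log2 for E2f1 in the combination.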
